A study of Bos taurus with 16 samples.

Results

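DnaJ proteins, also called J proteins or heat shock protein 40 family members, are cochaperones that bring client proteins to heat shock protein 70 (HSP70) and, through their J domain, make it hydrolyse ATP and close on the client. Subfamily A (DNAJA) members have the domain layout of the bacterial DnaJ protein with its zinc finger-like region, subfamily B (DNAJB) members have the J domain and a glycine- and phenylalanine-rich stretch without that region, and subfamily C (DNAJC) members share little beyond the J domain. Heat and other stress that unfolds proteins induce only some of these genes, while others serve the endoplasmic reticulum, the mitochondria, vesicle traffic or RNA processing. The members were all transcript clusters with 1 gene symbol in the platform annotation that starts with DNAJA, DNAJB or DNAJC and a number. A transcript cluster is the set of array probes along a gene. The rule gave 45 clusters of 44 genes, 4 of subfamily A, 13 of subfamily B and 27 of subfamily C, out of 24651 rows tested (1 row per gene or unnamed cluster). DNAJA1 had 2 clusters, which were averaged, and each of the other genes had 1. All 44 genes matched a gene of the current cattle RefSeq table by gene ID. A further 3 clusters that carry a DNAJC symbol together with another gene's symbol were left out. They are the only clusters of DNAJC19 and 1 cluster shared by DNAJC5G and MCFD2.

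RNA from the spleen of 16 crossbred beef steers, about a year old at the start of an 84-day feeding trial on 1 diet, was measured with 1 Affymetrix Bovine 1.1 ST array per steer. The 4 steers farthest out in each quadrant of gain and intake formed a group, named by its gain and then its intake, as in low gain-low intake, so the groups differ in phenotype and not in treatment. The steers were penned together, a steer of each group was slaughtered on each of several consecutive days, and breed composition differed between groups. The slaughter day, breed and RNA integrity of each steer are not in the labels, so these could not be modelled and their part in the results was not tested. Replicate numbers below only follow the order of the samples within a group, and equal numbers do not link steers of different groups.

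Values are log2 array signals after the authors' normalization, which includes a step that stretches the signal range, and differences between groups are taken within a gene. Levels of different genes depend on their probes, so those set against the array medians below show only how bright a cluster was. Array medians were 8.24 to 8.37, and correlations between arrays over all rows were 0.955 to 0.986. The means of marker genes for B cells (12.18 to 12.43 over the 4 groups), T cells (12.79 to 13.09) and red pulp macrophages (16.53 to 16.74) lay far above the array medians, while those of pancreas, adipose tissue and liver stood at 6.37 to 7.46 in the single steers. The adipose mean was 7.16 in low gain-low intake replicate 1 and 6.37 to 6.81 in the 15 other steers. Of the DnaJ genes, 29 of 44 had a mean level above the median of all rows, and DNAJB3, DNAJB7 and DNAJC5B lay below the lower quartile of the array in every steer. Spleen is a mixture of cells, so a lower level cannot be told apart from fewer cells of a type that carries the RNA.

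The DnaJ genes that stood out were 4 cytosolic members of subfamilies A and B, which had their highest group mean in the low gain-low intake steers. Relative to the other 3 groups on average, DNAJB4 was higher by 2.21 on the log2 scale (standard error 0.41), DNAJB1 by 1.81 (0.45), DNAJA4 by 1.52 (0.29) and DNAJA1 by 1.02 (0.22). On the stretched signal scale these correspond to 4.62-, 3.51-, 2.86- and 2.02-fold. None passed the limma test after Benjamini-Hochberg adjustment over all 24651 rows, with adjusted p of 0.268 for DNAJB4, 0.276 for DNAJA4, 0.444 for DNAJA1 and 0.533 for DNAJB1. No row of the whole table did (0.00% for this contrast, the F test, gain, intake and the interaction alike). Counts below therefore use an unadjusted p under 0.05 and are given beside the percentage of all rows at that level. That the study describes stress response genes as higher in this group was known when the contrast was chosen, so its direction here is not independent evidence.

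DNAJB4, a cytosolic J protein of the DNAJB1 type, measured 13.69, 12.84, 13.09 and 14.90 in low gain-low intake replicates 1 to 4. It measured 11.14, 11.96, 11.09 and 11.78 in the high gain-high intake steers, 11.81, 11.58, 11.73 and 9.50 in the high gain-low intake steers and 11.54, 11.10, 11.99 and 11.85 in the low gain-high intake steers. All 4 low gain-low intake steers were above all 12 others, and high gain-low intake replicate 4 stood apart below the rest. The exact permutation p for the low gain-low intake difference was 0.000549 (two-sided), the smallest that choosing 4 of 16 steers can give. DNAJB4 was the 1 member of 44 with this separation, and 0.101% of all rows had it, while no member had all 4 low gain-low intake steers below the others (0.0649% of rows).

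DNAJB1, the main stress-induced HSP40 of the cytosol and nucleus, measured 14.62, 13.19, 13.15 and 15.15 in the low gain-low intake steers. The values were 11.39, 11.71, 12.02 and 13.61 in the high gain-high intake group, 12.16, 12.26, 12.61 and 11.81 in the high gain-low intake group and 12.46, 10.94, 12.51 and 13.11 in the low gain-high intake group. Low gain-low intake replicates 1 and 4 were above all other steers, and high gain-high intake replicate 4 lay above replicates 2 and 3. DNAJB1 had the largest spread within groups of any member, with a pooled SD of 0.86 against a median of 0.32 over the 44 genes and 0.28 over all rows. Its exact permutation p was 0.0022.

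DNAJA4, a farnesylated cytosolic J protein that heat induces in mammalian cells, measured 11.39, 8.99, 10.48 and 10.81 in the low gain-low intake steers and between 8.49 and 9.37 in the other 12. Replicates 1, 3 and 4 were above every other steer, while replicate 2 lay within the range of the other groups. Without replicate 2, the difference was 1.99 with a limma adjusted p of 0.000564, so 1 steer decided whether DNAJA4 passed the adjusted test. With all 16 steers the exact permutation p was 0.0027.

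DNAJA1, a farnesylated partner of the constitutive HSP70 HSPA8, measured 13.997, 12.98, 13.25 and 13.63 in the low gain-low intake steers. The other groups had means of 12.62 ± 0.49 at high gain-high intake, 12.55 ± 0.45 at high gain-low intake and 12.18 ± 0.17 at low gain-high intake (SD, n = 4 each). Replicates 1, 3 and 4 were again above all other steers, and replicate 2 fell below 1 steer of each high gain group, at 13.21 and 13.19. The exact permutation p was 0.0022. The 2 clusters of DNAJA1, fitted apart, gave differences of 0.95 (standard error 0.26, unadjusted p = 0.0025) and 1.08 (standard error 0.28, unadjusted p = 0.0015).

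**Figure D1:**
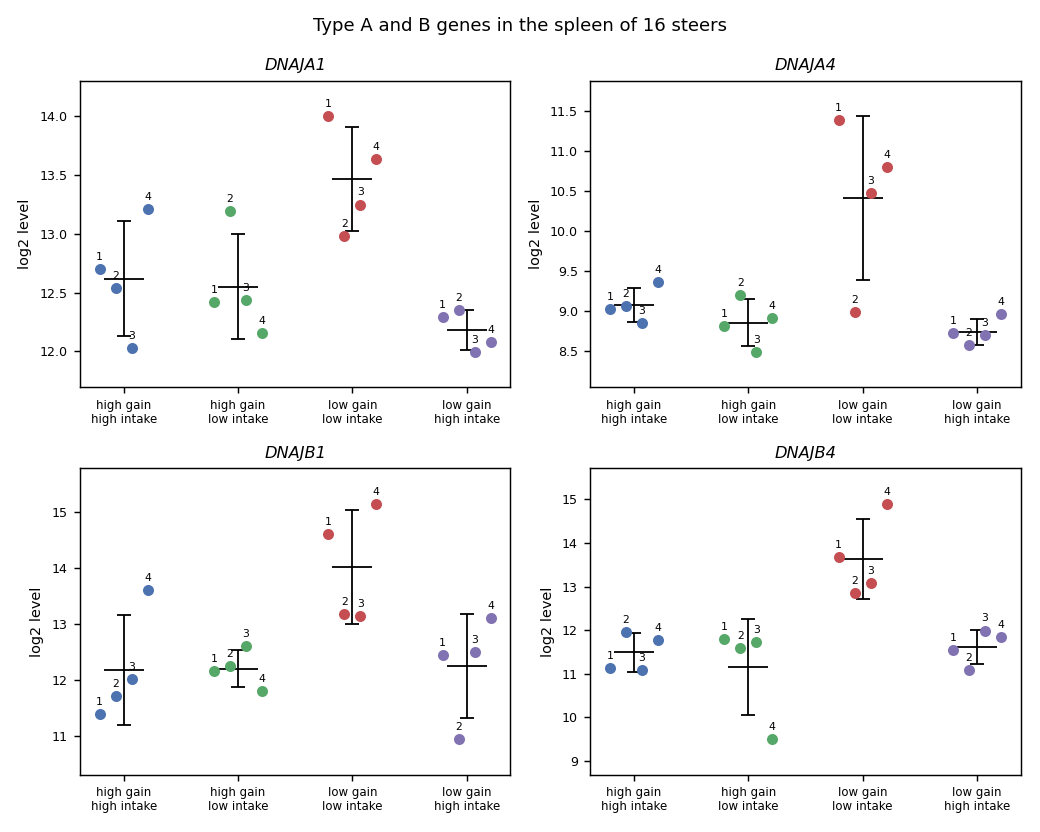
Log2 level of DNAJA1, DNAJA4, DNAJB1 and DNAJB4 in each of the 16 steers by gain-intake group, with the steer's replicate number, the group mean (long bar) and SD (error bar, n = 4). The low gain-low intake mean is highest in each panel, with all 4 above the other 12 for DNAJB4 and replicate 2 at 8.99 within the other groups for DNAJA4.

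The same low gain-low intake steers were highest for all 4 genes. Replicate 1 exceeded the mean of the other groups by 1.55 for DNAJA1, 2.49 for DNAJA4, 2.40 for DNAJB1 and 2.26 for DNAJB4, and replicate 4 by 1.19, 1.91, 2.94 and 3.48. Replicate 2 exceeded it by 0.53, 0.09, 0.97 and 1.42 and replicate 3 by 0.80, 1.58, 0.93 and 1.67. Replicates 1 and 4 therefore held the top places for each gene, and replicates 2 and 3 the lower ones. Replicate 1 is the steer with the highest adipose marker mean, and without it the low gain-low intake differences were 0.84 for DNAJA1, 1.19 for DNAJA4, 1.61 for DNAJB1 and 2.19 for DNAJB4.

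The low gain-low intake contrast had an unadjusted p under 0.05 in 7 of 44 members (15.9%) against 5.49% of all rows. DNAJA1, DNAJA4, DNAJB1, DNAJB4 and DNAJC25 were higher (2.96% of all rows were higher at this level) and DNAJC16 and DNAJC5 were lower (2.54% of rows). The F test for any difference among the 4 groups gave 7 members against 4.71% of rows, namely DNAJA1, DNAJA4, DNAJB1, DNAJB4, DNAJB5, DNAJC5 and DNAJC16. Over the F test and the 4 contrasts together, 11 of 44 members (25%) were under this level at least once, against 14.5% of rows. These tests share all steers and are not independent counts. In the low gain-low intake contrast DNAJA1, DNAJA4, DNAJB1, DNAJB4 and DNAJC16 stayed under an unadjusted p of 0.05 whichever single steer was left out.

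The subfamilies differed in how their members lay. Subfamily A had a median low gain-low intake difference of 0.60, with 3 of 4 genes higher and 2 of 4 under an unadjusted p of 0.05. Subfamily B had a median of 0.16, with 9 of 13 higher and 2 of 13 under that level. Subfamily C had a median of 0.003, with 14 of 27 higher and 13 lower and 3 of 27 under that level, next to a median of -0.002 over all rows. Of all rows, 49.5% were higher and 5.49% were under that level. These are descriptions of lists whose results were known beforehand, and differences between subfamilies were not tested.

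The mean over the subfamily A genes was 11.43 ± 0.39 in the low gain-low intake steers and 10.65 to 10.94 in the other groups. For subfamily B it was 9.86 ± 0.21 against 9.40 to 9.52, and for subfamily C 9.27 ± 0.07 against 9.25 to 9.31 (SD, n = 4 steers). The A and B means rested on the 4 genes above: without DNAJA1 and DNAJA4 the subfamily A difference was 0.04, and without DNAJB1 and DNAJB4 the subfamily B difference was 0.09. Of the 40 members besides these 4, which were set aside after their values were seen, 22 were higher and 18 lower with low gain and low intake.

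**Figure D2:**
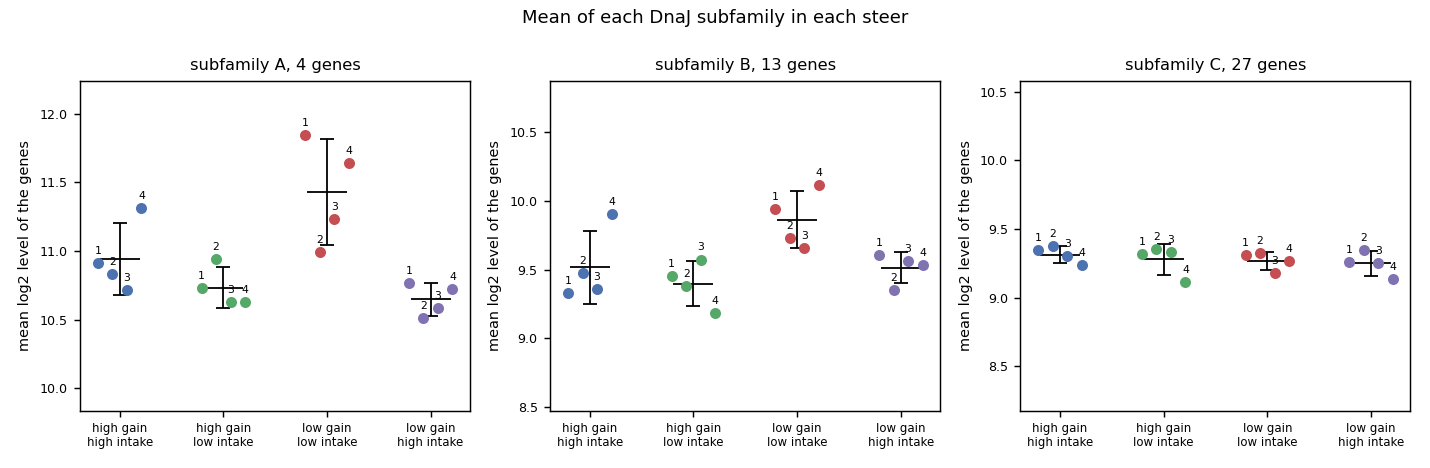
Mean log2 level of the genes of subfamilies A (4 genes), B (13) and C (27) in each steer by gain-intake group, with the replicate number, the group mean (long bar) and SD (error bar, n = 4), on axes of equal length. The low gain-low intake steers average 11.43 in subfamily A, 9.86 in subfamily B and 9.27 in subfamily C, and in subfamily C the groups overlap.

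**Figure D3:**
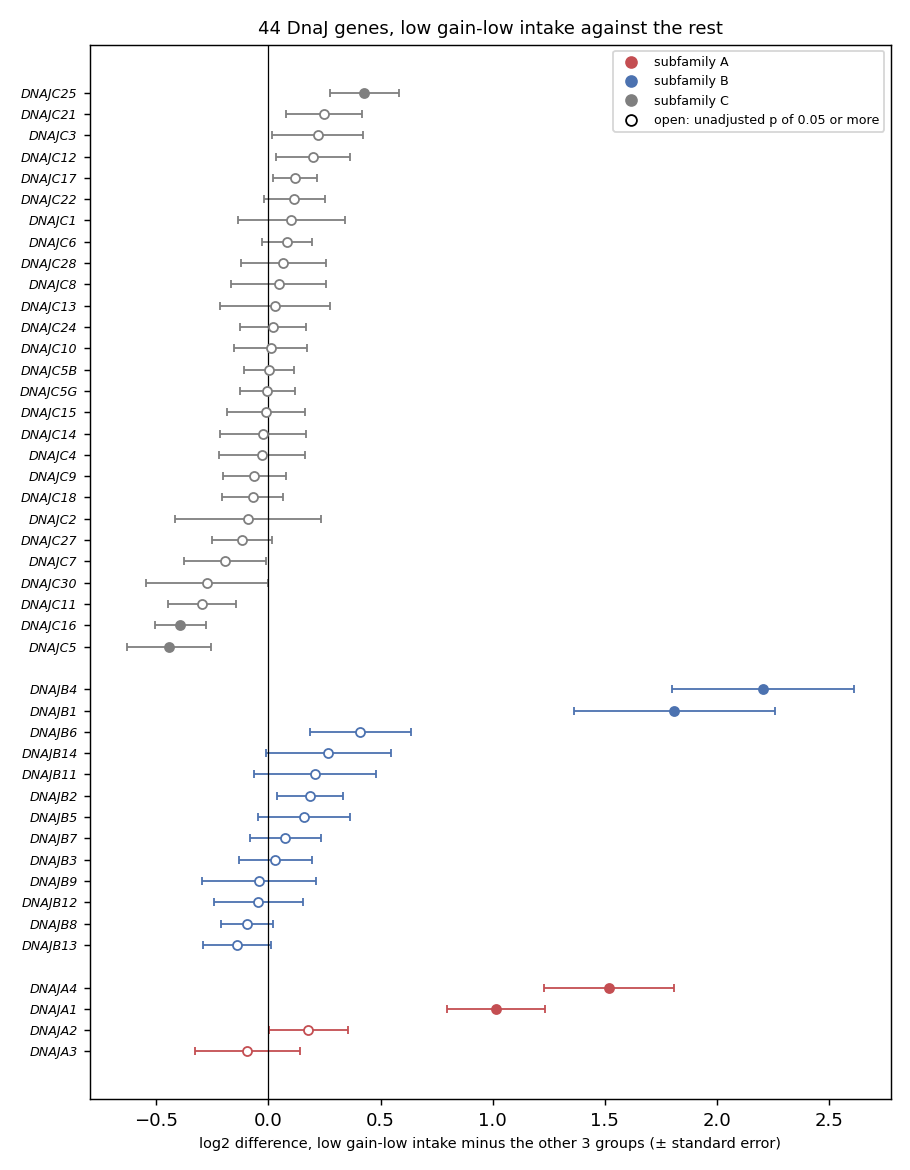
Low gain-low intake minus the mean of the other 3 groups for each of the 44 DnaJ genes, on the log2 scale with the standard error from limma, ordered within subfamily. Filled points have an unadjusted p under 0.05; DNAJB4, DNAJB1, DNAJA4 and DNAJA1 lie above 1 and the 40 other genes between -0.44 and 0.43.

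The cytosolic and nuclear chaperoning members numbered 12, of which 9 had a positive and 3 a negative low gain-low intake difference, with the 4 genes above under an unadjusted p of 0.05 (49.5% of all rows were positive and 5.49% under that level). DNAJB6, which keeps polyglutamine proteins from aggregating, was next with a difference of 0.41 (standard error 0.23). DNAJB2, a J protein with ubiquitin-interacting motifs, differed by 0.19 (0.15) and DNAJA2, the close relative of DNAJA1, by 0.18 (0.18). DNAJB7, a mainly testicular gene, differed by 0.08 (0.16) and DNAJB8, a relative of DNAJB6, by -0.09 (0.12). DNAJC7, which also binds HSP90 through its tetratricopeptide repeats, differed by -0.19 (0.18), and DNAJC2, which works at the ribosome, by -0.09 (0.32). None of these 7 genes had an unadjusted p under 0.05 in the F test or a contrast, against 14.5% of all rows under it at least once. DNAJB5, the last of the 12, is described with the interaction.

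The members that serve the lumen of the endoplasmic reticulum, where an unfolded protein response induces several of them, numbered 5. None had an unadjusted p under 0.05 in the F test or a contrast, against 14.5% of all rows under it at least once. Of the low gain-low intake differences, 4 were positive and 1 negative, and 49.5% of all rows were positive. DNAJC3, which restrains the translation kinase PERK, differed by 0.22 (standard error 0.20) in the low gain-low intake group and DNAJB11, a cofactor of the HSP70 HSPA5, by 0.21 (0.27). DNAJC1 differed by 0.10 (0.24), DNAJC10, a reductase of the folding machinery, by 0.01 (0.16) and DNAJB9, another unfolded protein response gene, by -0.04 (0.25). In the same steers DNAJB1 and DNAJB4 stood 1.81 and 2.21 higher, and how the 5 genes compare with these was not tested.

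Among the 5 J proteins anchored in membranes, DNAJC16 was lower and DNAJC25 higher in low gain-low intake steers. DNAJC16, a membrane protein of the endoplasmic reticulum, measured 9.96, 10.22, 10.04 and 9.88 in the low gain-low intake steers and 10.12 to 10.65 in the other 12. Replicates 1, 3 and 4 were the lowest of all steers, and replicate 2 lay above 2 steers of other groups. The difference was -0.39 (standard error 0.11, unadjusted p = 0.0033, adjusted p = 0.645, exact permutation p = 0.0016).

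DNAJC25, whose product spans a membrane, measured 9.58, 9.78, 9.90 and 9.96 in the low gain-low intake steers and 8.84 to 9.77 in the others. Replicates 2, 3 and 4 were the highest of all steers, and replicate 1 overlapped with the high gain-high intake group. The difference was 0.43 (standard error 0.15, unadjusted p = 0.014, adjusted p = 0.788, exact permutation p = 0.011), and its unadjusted p was 0.0501 without replicate 4. DNAJB14, a partner of DNAJB12 in the degradation of membrane proteins, differed by 0.27 (0.28), DNAJB12 by -0.05 (0.20) and DNAJC18 by -0.07 (0.14).

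Mitochondrial members numbered 6. None was under an unadjusted p of 0.05 in the F test or a contrast, against 14.5% of all rows under it at least once. The low gain-low intake differences of these 6 were positive in 1 and negative in 5, and 49.5% of all rows were positive. DNAJC11, found with the complex that shapes the inner membrane, had the largest difference, -0.30 (standard error 0.15, unadjusted p = 0.067). DNAJC30 differed by -0.27 (0.27), DNAJA3, the mitochondrial member of subfamily A, by -0.09 (0.23), DNAJC4 by -0.03 (0.19), DNAJC15, a partner of the protein import motor, by -0.01 (0.17) and DNAJC28 by 0.07 (0.19). DNAJA3 is the only subfamily A gene that was lower in the low gain-low intake group. DNAJC4 lay under the lower quartile of the array in 13 steers, and DNAJC28 and DNAJC30 under the median in 15 and 12.

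DNAJC5, which encodes cysteine string protein, a vesicle cochaperone of exocytosis, followed gain on the array. It measured 10.50, 10.19, 10.69 and 11.13 in the high gain-high intake steers and 10.81, 10.26, 10.22 and 11.15 in the high gain-low intake steers. The low gain-low intake steers had 9.997, 10.39, 10.004 and 9.61 and the low gain-high intake steers 10.01, 10.02, 10.20 and 10.16. Of the 8 low gain steers, 6 were below every high gain steer, and low gain-low intake replicate 2 and low gain-high intake replicate 3 overlapped with them. In the qRT-PCR that the study reports for the same steers, DNAJC5 went the other way and was lower in both high gain groups.

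The high minus low gain difference of DNAJC5 was 0.57 (standard error 0.16, unadjusted p = 0.0033, adjusted p = 0.725, exact permutation p = 0.0019). It was 0.53 at high intake and 0.61 at low intake. The low gain-low intake group alone was lower by 0.44 against the other 3 groups, with an exact permutation p of 0.0654, and the unadjusted limma p of this contrast was 0.032 with all steers, 0.062 or 0.060 without low gain-low intake replicate 1 or 3 and 0.148 without replicate 4.

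Gain had an unadjusted p under 0.05 in 7 of 44 members against 6.06% of all rows. DNAJC5 and DNAJC16 were higher in high gain (2.61% of rows were) and DNAJA4, DNAJB1, DNAJB4, DNAJC5G and DNAJC6 were lower (3.45% of rows). DNAJC16 differed by 0.22, with a difference of 0.04 at high intake and 0.40 at low intake. For DNAJA4, DNAJB1 and DNAJB4 the overall gain differences were -0.61, -0.94 and -1.30, but at high intake they were 0.33, -0.07 and -0.13 and at low intake -1.55, -1.82 and -2.47. In these 3 genes the gain difference lay in the low intake steers. The exact permutation p for gain was 0.180 for DNAJA4, 0.093 for DNAJB1, 0.023 for DNAJB4 and 0.056 for DNAJC16. Without high gain-low intake replicate 4, the count for gain was 3 genes. Leaving out 1 steer took the unadjusted p of gain above 0.05 for 4 choices of steer in DNAJA4, 6 in DNAJB1, 8 each in DNAJC5G and DNAJC6 and 9 in DNAJC16, and for none in DNAJB4 and DNAJC5. Of 5 neutrophil markers, 5 were higher in high gain (47.0% of all rows were) and 0 had an unadjusted p under 0.05. Their median difference was 0.28, smaller than the within-group SD of 0.83 of their mean. The part of these markers in the DnaJ results was not tested.

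DNAJC5G and DNAJC6 were dim, with levels under the array median in all 16 steers. They lay under the lower quartile of the array in 5 steers for DNAJC5G and 14 for DNAJC6. DNAJC5G, a relative of DNAJC5 known mainly from testis, measured 7.11, 6.72, 7.08 and 7.13 with high gain and high intake, 7.07, 7.12, 6.87 and 6.83 with high gain and low intake, 7.03, 6.81, 7.30 and 7.31 with low gain and low intake, and 7.40, 7.50, 7.51 and 7.06 with low gain and high intake. DNAJC6, auxilin, which uncoats clathrin vesicles in neurons, had means of 6.68 ± 0.14, 6.65 ± 0.18, 6.84 ± 0.21 and 6.93 ± 0.14 in the same order of groups (SD, n = 4). High and low gain steers overlapped for both genes. The gain differences were -0.25 (standard error 0.11, exact permutation p = 0.036) and -0.22 (standard error 0.09, exact permutation p = 0.019), and both had an adjusted p of 0.810. Both lost their unadjusted p under 0.05 when arrays were centred on their medians or quantile normalized.

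The other vesicle and endosome members varied little between groups. DNAJC13, which acts with the retromer on endosomes, differed by 0.03 (standard error 0.24) in the low gain-low intake group, DNAJC27, a small GTPase with a J domain, by -0.12 (0.13) and DNAJC5B by 0.003 (0.11). Neither gain nor intake had an unadjusted p under 0.05 for any of these 3 genes.

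**Figure D4:**
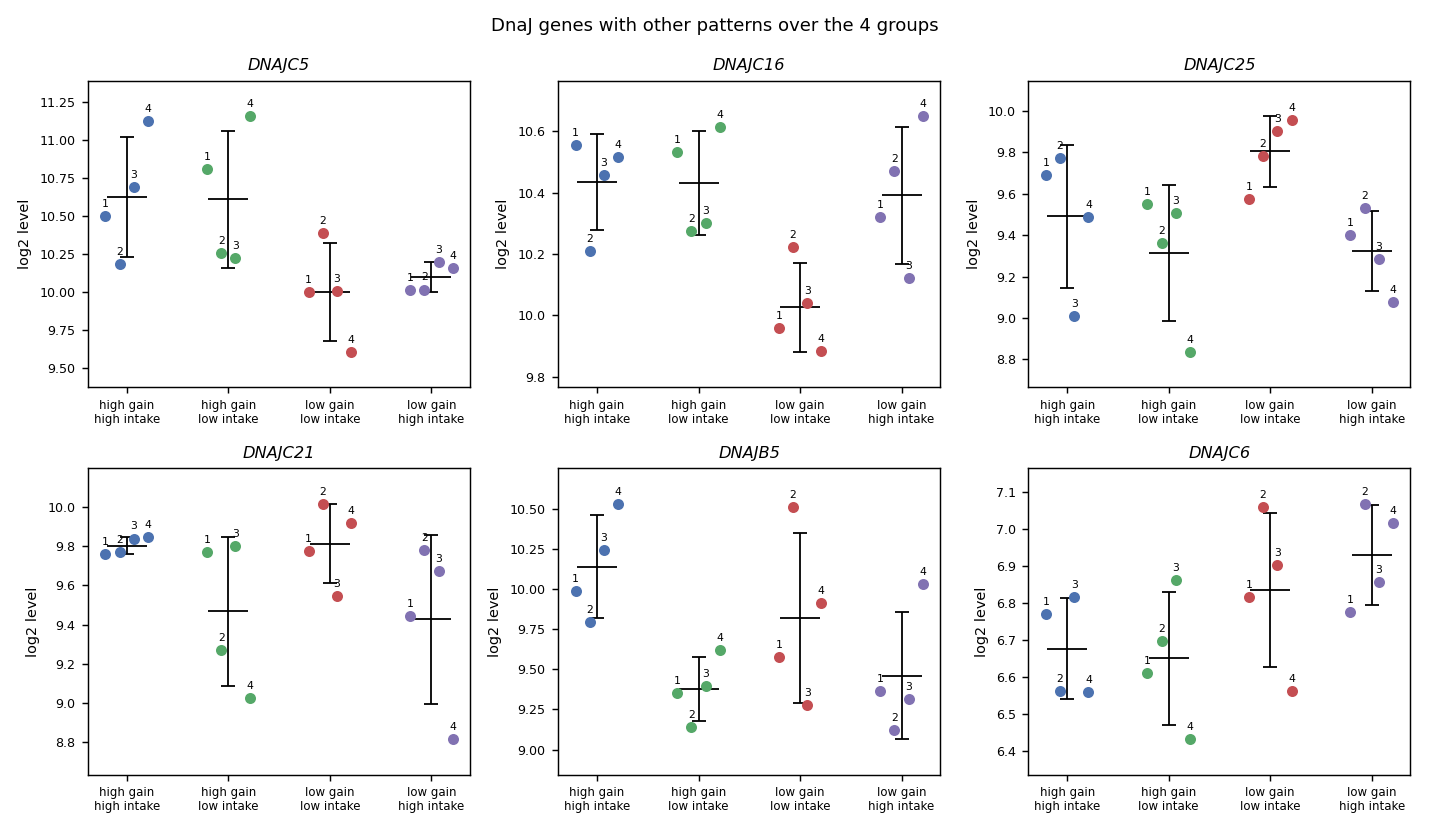
Log2 level of DNAJC5, DNAJC16, DNAJC25, DNAJC21, DNAJB5 and DNAJC6 in each of the 16 steers by gain-intake group, with the replicate number, the group mean (long bar) and SD (error bar, n = 4), each panel on its own axis. DNAJC5 is higher in both high gain groups (means 10.62 and 10.61) than in the low gain groups (9.999 and 10.10), and DNAJC16 is lowest in the low gain-low intake group (10.03).

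Intake had an unadjusted p under 0.05 in 4 of 44 members against 3.40% of all rows, and these were DNAJA1, DNAJA4, DNAJB1 and DNAJB4, each lower at high intake (1.69% of rows were lower and 1.72% higher). The differences were -0.61, -0.72, -0.90 and -0.84 in that order. The exact permutation p for intake was 0.042 for DNAJA1 but 0.115 for DNAJA4, 0.112 for DNAJB1 and 0.189 for DNAJB4. Within high gain, the intake difference was 0.07, 0.22, -0.03 and 0.34, and within low gain it was -1.28, -1.67, -1.77 and -2.01. The count for intake was 2 genes, without DNAJB1 and DNAJB4, when high gain-high intake replicate 1 or 3 or high gain-low intake replicate 3 was left out. DNAJB1 lost this level for 8 choices of a left-out steer and DNAJB4 for 7, and DNAJA1 and DNAJA4 for none. No member separated all 8 high from all 8 low steers in gain or intake, and 0.0162% and 0.00811% of rows did.

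Of 4 smooth muscle markers, 4 were higher at high intake (51.2% of all rows were) and 1 had an unadjusted p under 0.05 (3.40% of rows). The median difference of these markers was 0.71. Their mean was 14.94 in both high intake groups, with steers from 13.72 to 16.32. At low intake it was 14.14 with high gain (steers from 13.77 to 14.40) and 14.31 with low gain (steers from 13.48 to 15.36). In the low gain-low intake contrast these 4 genes were negative with a median of -0.36, while 49.5% of all rows were positive. Of the 4, 0 were under an unadjusted p of 0.05. In the interaction the 5 T cell and 4 smooth muscle markers were positive, with medians of 0.29 and 0.14. The 4 erythroid and 4 pancreas markers were negative there, with medians of -0.33 and -0.19. Again 0 were under that level, and 47.2% of all rows were positive. The part of these markers in the DnaJ results was not tested. In the low gain-low intake contrast no gene of the 10 marker lists had an unadjusted p under 0.05.

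The interaction, that is how far the intake difference of high gain steers exceeds that of low gain steers, had an unadjusted p under 0.05 in 7 of 44 members against 4.64% of all rows. All 7 were positive (2.46% of rows were positive and 2.19% negative at this level), and each had an adjusted p of 1. For DNAJA1 it was 1.35 (standard error 0.38), for DNAJA4 1.89 (0.50), for DNAJB1 1.75 (0.77) and for DNAJB4 2.35 (0.70). The exact permutation p of the interaction was 0.0205 for DNAJA1, 0.0059 for DNAJA4, 0.124 for DNAJB1 and 0.0476 for DNAJB4. These 4 genes were high where both gain and intake were low. DNAJB5, DNAJC21 and DNAJC25 followed with 1.12 (0.36), 0.72 (0.30) and 0.66 (0.27).

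DNAJB5, a relative of DNAJB1 and DNAJB4 studied in mouse heart, had another pattern from theirs. It measured 9.98, 9.79, 10.24 and 10.53 in the high gain-high intake steers and 9.35, 9.14, 9.40 and 9.62 in the high gain-low intake steers, with no overlap. At low gain it measured 9.57, 10.51, 9.28 and 9.91 with low intake and 9.37, 9.12, 9.32 and 10.03 with high intake, and these groups overlapped. High minus low intake was thus 0.76 within high gain and -0.36 within low gain, with an exact permutation p of 0.0115 for the interaction. Low gain-low intake steers differed from the rest by 0.16 (standard error 0.21).

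DNAJC21, which takes part in making the large ribosomal subunit, measured 9.76, 9.77, 9.84 and 9.84 in high gain-high intake steers and 9.77, 10.01, 9.55 and 9.92 in low gain-low intake steers. With high gain and low intake it measured 9.77, 9.27, 9.80 and 9.03, and with low gain and high intake 9.44, 9.78, 9.67 and 8.82. In each of these groups 2 steers lay below every steer of the first 2 groups, at 9.27 and 9.03 and at 9.44 and 8.82, and the other 2 overlapped with them. The intake difference was 0.34 within high gain and -0.39 within low gain, with an exact permutation p of 0.0194. For DNAJC25 it was 0.18 and -0.48, with an exact permutation p of 0.0336. Without high gain-low intake replicate 4, the interaction was under an unadjusted p of 0.05 in 4 genes, without DNAJB1, DNAJC21 and DNAJC25. Those 3 lost this level for 7, 4 and 5 choices of a left-out steer, and the other 4 for none.

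**Figure D5:**
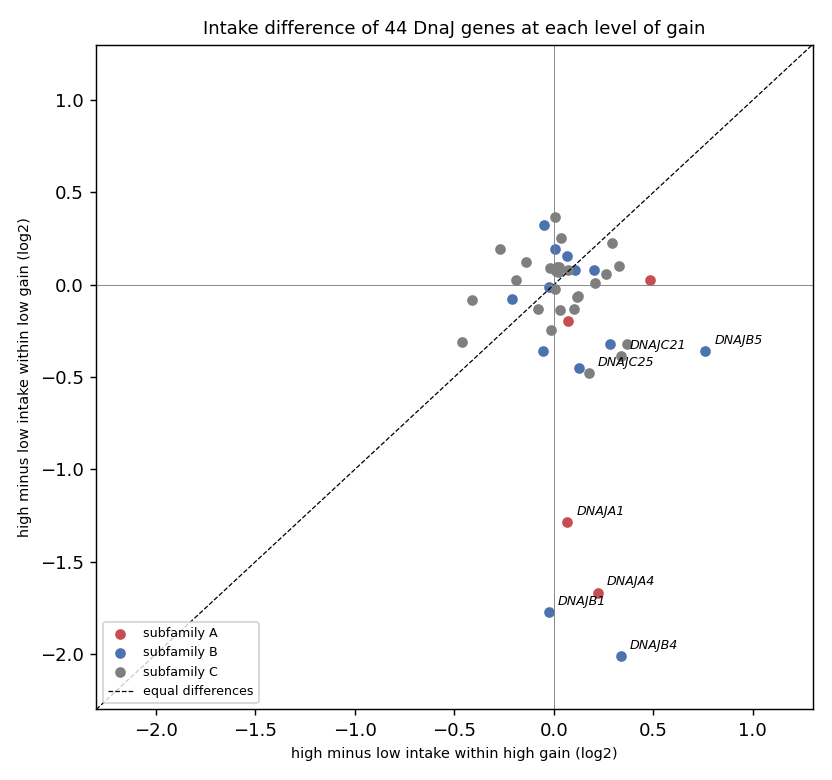
High minus low intake difference within low gain (vertical axis) against that within high gain (horizontal axis) for the 44 DnaJ genes on the log2 scale, with the line of equal differences; the 7 labelled genes have an interaction with an unadjusted p under 0.05. DNAJA1, DNAJA4, DNAJB1 and DNAJB4 lie between -1.28 and -2.01 on the vertical axis and between -0.03 and 0.34 on the horizontal axis.

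The remaining members showed small differences. Of the 4 nuclear and RNA members, DNAJC21 differed by 0.25 (standard error 0.17) in the low gain-low intake group, DNAJC17, which binds spliceosome components, by 0.12 (0.10), DNAJC8, a spliceosome protein, by 0.05 (0.21) and DNAJC9, a histone cochaperone, by -0.06 (0.14). Among 6 others, DNAJC12, a cochaperone of the aromatic amino acid hydroxylases, differed by 0.20 (0.16), DNAJC22 by 0.12 (0.14), DNAJB3 by 0.03 (0.16), DNAJC24, an enzyme of diphthamide synthesis, by 0.02 (0.15), DNAJC14, which regulates the export of receptors from the endoplasmic reticulum, by -0.02 (0.19) and DNAJB13, an axoneme protein of cilia and sperm, by -0.14 (0.15). None of these 10 had an unadjusted p under 0.05 for the low gain-low intake contrast, against 5.49% of all rows. DNAJC22 came nearest for gain, with a difference of -0.25 and an unadjusted p of 0.051. DNAJC2 had the largest within-group SD of subfamily C, 0.62, with steers from 9.22 to 11.27 and an unadjusted p above 0.05 in every test.

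The HSP70 and HSP110 partners were read beside their cochaperones. Of 13 listed genes, 11 had a cluster with a single symbol, while HSPA1A and HSPA5 were not analysed here. All 11 had a positive low gain-low intake difference with a median of 0.17, and 4 of 11 had an unadjusted p under 0.05, next to 49.5% positive and 5.49% under that level over all rows. HSPH1, the HSP110 that exchanges the nucleotide of HSP70 in disaggregation, measured 17.23, 13.97, 14.80 and 15.80 in the low gain-low intake steers against group means of 12.16 to 12.82. Its difference was 2.97 (standard error 0.47, adjusted p = 0.143, exact permutation p = 0.000549), with replicates 1 and 4 again the highest and replicate 2 the lowest of the 4.

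HSPA6 and HSPA4, a stress-induced HSP70 and a second HSP110, were higher by 1.31 (standard error 0.33) and 1.14 (0.28). HSPA8, the constitutive HSP70 with which DNAJA1 works, differed by 0.39 (standard error 0.13, unadjusted p = 0.0079), with a mean of 18.27 against 17.82 to 17.94 in the other groups. All 4 low gain-high intake steers had the same value of HSPA8, 17.86, which low gain-low intake replicate 2 shared. The SD of 0 in that group enters the pooled spread, so the standard error and p of HSPA8 may be too small. The other 7 partners (HSPA1L, HSPA2, HSPA4L, HSPA9, HSPA13, HSPA14 and HYOU1) had differences of 0.03 to 0.45 and none was under an unadjusted p of 0.05.

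Of the 10 nucleotide exchange factors, 5 were higher and 5 lower, and BAG3 alone had an unadjusted p under 0.05. Over all rows, 49.5% were higher and 5.49% under that level. BAG3, which hands HSP70 clients to autophagy and is heat induced, was higher by 1.44 (standard error 0.31, adjusted p = 0.444, exact permutation p = 0.0022), with excesses of 2.13, 0.92, 1.20 and 1.52 in replicates 1 to 4. Of the proteins that link HSP70 to HSP90 or to degradation, STIP1 was higher by 0.90 (standard error 0.27) and ST13 by 0.53 (0.18), and STUB1 differed by -0.08 (0.18). The J proteins with other names, HSCB, SEC63 and GAK, differed by 0.11 (0.10), 0.09 (0.21) and -0.41 (0.25), and none was under an unadjusted p of 0.05 in this contrast. Adjusted p was above 0.05 for each of these genes.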

How the data were processed

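Affymetrix Bovine 1.1 ST arrays were run on spleen RNA, 1 for each of 16 steers. The authors applied GC content normalization, signal space transformation and RMA in Affymetrix Expression Console, and the deposited values are 1 log2 value per transcript cluster and steer. Transcriptome Analysis Console is another tool in the submitters' processing notes, and for neither program is a version given in the sources used here. Steers were grouped by the phenotype in the labels. Of 26773 deposited features, 1776 had IDs under the lowest annotated ID and were not tested, and clusters of a gene were averaged, which gave 24651 rows. The 4 group means, with no other term, were estimated in limma 3.58.1 (R 4.3.3; lmFit, then eBayes), and p-values were adjusted over all rows by Benjamini-Hochberg. For single genes, steers were also permuted exactly and two-sided, with 1820 splits of 4 of 16 or 12870 of 8 of 16 (smallest p 0.000549 and 0.000155), shuffling over all groups. Differences in the other contrasts therefore enter the shuffled values, and the permutation p does not test 1 contrast alone. The fit was tested on simulated data.

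Genes named in detail are members with an unadjusted p under 0.05 in the F test or a contrast, members the study names, and in each subfamily the highest and lowest low gain-low intake difference and the largest within-group SD. Each other member is given by its role, and other pathway genes come from lists of HSP70 and HSP110 partners, nucleotide exchange factors, other J proteins and linkers. Roles and lists were set by hand, and of the partner list HSPA1A and HSPA5 were not analysed here. Marker lists covered 10 cell types or tissues. Members and lists were chosen with earlier results of these data known. The number of arrays limits the precision, and p-values measure the spread between separate animals. Alternatives tried were robust moderation with an intensity trend, ordinary least squares without moderation, weights for arrays, quantile normalization, centring of arrays on their medians, rows above the median level only, low IDs kept in, each cluster fitted apart and each steer left out in turn.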

Additional observations from a re-analysis of the deposited data

Results flagged for a closer look

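For 7 members the intake difference changed with gain by the interaction term of the limma fit at an unadjusted p under 0.05, though each had an adjusted p of 1. The interaction was 1.35 for DNAJA1, 1.89 for DNAJA4, 1.75 for DNAJB1, 2.35 for DNAJB4, 1.12 for DNAJB5, 0.72 for DNAJC21 and 0.66 for DNAJC25.

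Of 56 groups of 4 steers examined in the genes named in detail, 3 had a steer far from the others by Dixon's criterion, where chance gives about 1 in 20. DNAJB4 was 9.50 in high gain-low intake replicate 4, against 11.58 to 11.81 in the rest of that group. DNAJB13 was 8.56 in low gain-high intake replicate 3, against 8.01 to 8.09. DNAJC5G was 6.72 in high gain-high intake replicate 2, against 7.08 to 7.13.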

How the results depend on the processing

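The low gain-low intake count was 7 or 8 under the 8 alternatives to the fit and 6 to 8 with a steer left out, and the F test count was 6 or 7 and 5 to 8. The gain count was 4 in place of 7 with quantile normalization, and the intake count 2 in place of 4 with ordinary least squares. With a steer left out, gain gave 3 to 9, intake 2 to 6 and the interaction 4 to 8 genes. Adjusted counts were 0 under the 8 alternatives. With a steer left out they were 0 to 1 for the F test, the interaction and the low gain-low intake contrast, and 0 for gain and intake. The 1 was DNAJA4 without low gain-low intake replicate 2 (adjusted p 0.00669, 0.0250 and 0.000564). With array weights, the adjusted p of DNAJA4 and DNAJB4 in the low gain-low intake contrast was 0.0522. The subfamily medians were 0.481 to 0.722 for A, 0.0877 to 0.207 for B and -0.022 to 0.041 for C with a steer left out. For single genes, 516 of 598 recomputed results stayed under an unadjusted p of 0.05, 82 did not, and 0 reversed. Centring moved the median over all rows by at most 0.033. No paired analysis was possible because the labels give no slaughter days, and the replicate numbers used here do not match steers between groups. DNAJB3, DNAJB7 and DNAJC5B lay below the lower quartile of every array, so small differences in these 3 genes rest on dim signal. DNAJB8 and DNAJC6 lay below it in 14 arrays each and DNAJC4 in 13, so the same limit holds for them. DNAJC5G, DNAJC8, DNAJC9, DNAJC17 and DNAJC22 lay below the array median in all 16 steers.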
